A study of Mus musculus with 4 samples.

Results

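Mouse tooth germs, the embryonic organs from which teeth form, were cultured at 25 °C with cyclophosphamide (CPA) or with its solvent dimethyl sulfoxide (DMSO), and their transcripts were counted by CAGE. In CAGE, the cap analysis of gene expression, reads start at the capped 5′ end of each RNA, so that transcripts are counted where they begin. The 2 libraries compared were 25°C_CPA and 25°C_DMSO, of 4 in the series, and a gene was measured here when the higher of these libraries had at least 50 counts, which held for 12704 of 15887 genes. The remaining libraries, 37°C_CPA and 37°C_DMSO, gave the same drug contrast at 37 °C and are set beside it. The germs came from embryos of the ICR strain labelled E14.5, with no genetic change named in the labels, and more than 5 germs were pooled per library. All 4 groups shared the organ culture and a culture of 3 days with the agent. The study's design text gives 2.5 mM CPA, whereas the sample records give 0.25 mM CPA, dissection at E13.5 and 4 later days without CPA, and these sources were not reconciled here. In the low-temperature culture of the study, the later days without CPA were spent at 37 °C. Whether this applied to the 25 °C libraries is not known. The question was how far CPA altered the transcripts of tooth germs when it was given at the low temperature.

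CPA is a prodrug. Cytochrome P450 enzymes turn it into products that crosslink DNA, aldehyde dehydrogenases detoxify an intermediate, and cells with such lesions normally stabilise p53, which switches on genes of cell cycle arrest, repair and apoptosis. A tooth germ consists of an epithelium that shapes the crown and will make enamel and of a mesenchyme that will make pulp and dentin, with some vessels, nerve, bone and muscle precursors around them.

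Both libraries at 25 °C were of nearly equal depth, with 15297204 counts in 25°C_CPA and 15101186 counts in 25°C_DMSO, while 37°C_CPA and 37°C_DMSO held 15255885 and 16449264 counts. At this depth 3 counts, taken as the floor of a count of 0, stand for 0.196 and 0.199 CPM, the count scaled to a common library total, in 25°C_CPA and 25°C_DMSO. The markers of the tissue were present at 25 °C. In the epithelium, Krt14, a keratin of its basal layer, had 2504 counts in 25°C_CPA and 2278 in 25°C_DMSO. In the mesenchyme, Msx1 had 3346 and 3007 counts in the same order, Pax9 914 and 873, and Barx1 989 and 1029. Folds are counts in CPA over counts in DMSO after scaling by TMM factors, which align the bulk of genes between libraries, and the interval given with each fold is the 95% counting interval of the split of its 2 counts. With 1 library per condition no spread between cultures could be measured, so no fold carries a test, and the intervals cover counting error only.

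CPA was followed by few differences at 25 °C. Of 12704 measured genes, 18 (0.142%) stood 2-fold or more higher in 25°C_CPA than in 25°C_DMSO and 15 (0.118%) stood 2-fold or more lower, together 0.26% of the genes. At 37 °C the shares were 2.4% higher and 1.59% lower, together 4% of 13307 measured genes. The genes called higher were led by S100a9 and S100a8, 3 genes of the Y chromosome, the splicing kinase Clk2 and genes of cytokine signalling and muscle, and the genes called lower included the adhesion molecule gene Vcam1 and 8 predicted genes. The counting intervals of all 33 genes left out a fold of 1. A 2-fold call with at least 50 counts ensures this, so it adds no support. The intervals of only 7 of the 18 higher genes and 3 of the 15 lower genes lay wholly beyond 2-fold. In 11 of the 18 and 12 of the 15 the higher library had under 100 counts.

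**Figure D1:**
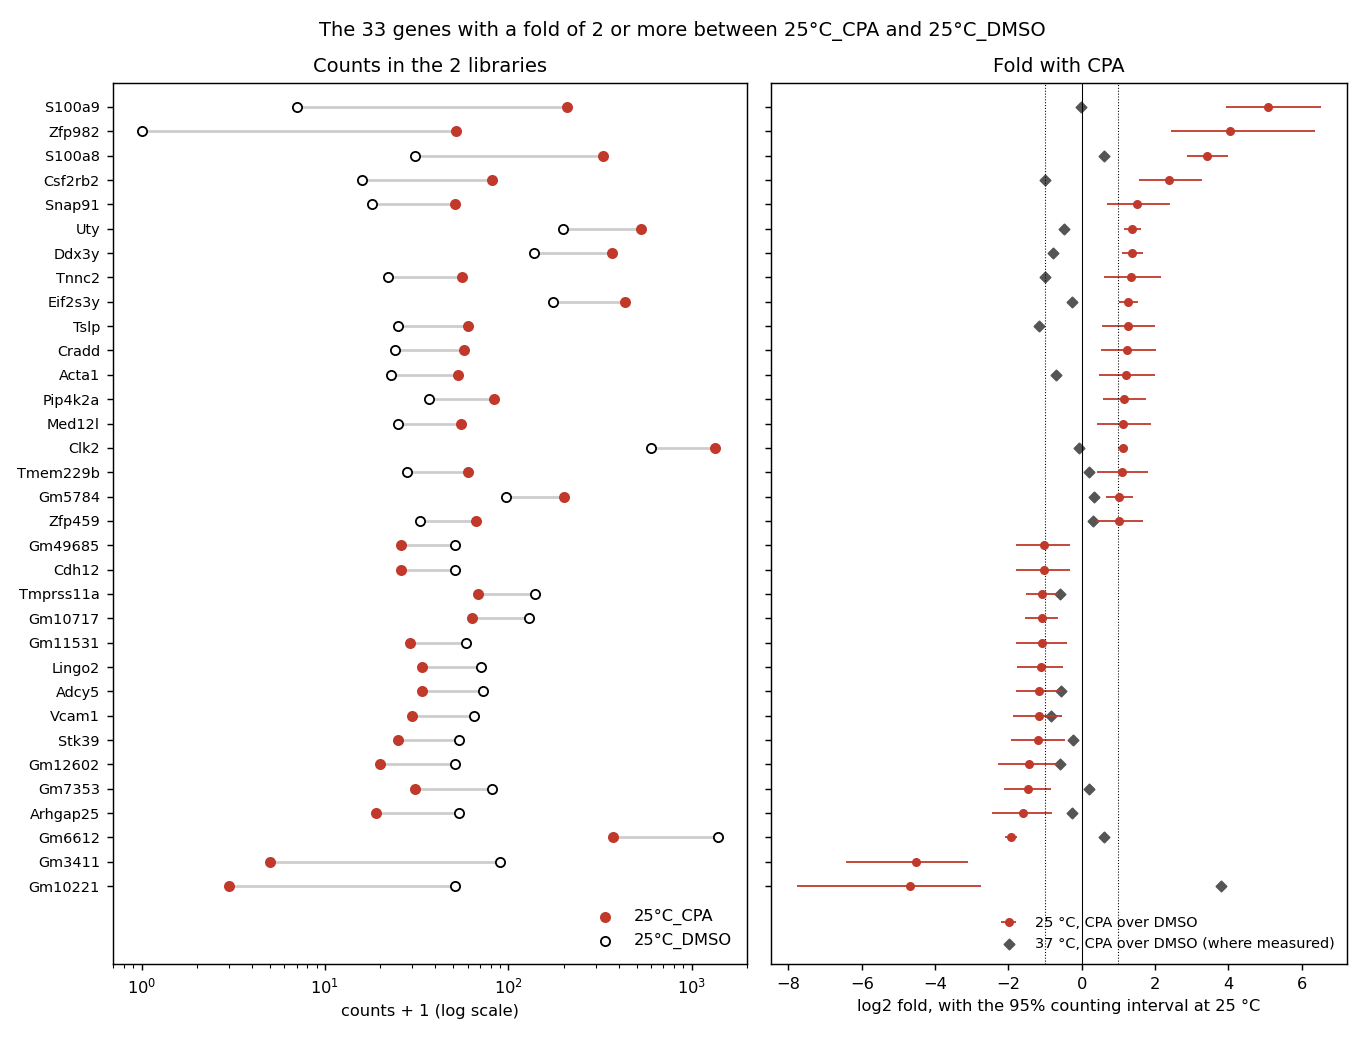
Counts plus 1 in 25°C_CPA and 25°C_DMSO (left, log scale) and log2 fold with its 95% counting interval (right, diamonds for the fold at 37 °C where the gene was measured) for the 33 genes with a fold of 2 or more; dotted lines mark 2-fold, and the fold of Zfp982 is set against the floor of 3 counts. S100a9, with 207 and 6 counts, lies at the top, and Gm10221, with 2 and 50 counts, at the bottom with its 37 °C fold on the opposite side.

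S100a9 and S100a8 encode the paired calcium-binding subunits of calprotectin, a protein stored by neutrophils and also made by stressed or inflamed keratinocytes. S100a9 had 207 counts in 25°C_CPA and 6 in 25°C_DMSO, beside 417 in 37°C_CPA and 462 in 37°C_DMSO. Its fold was 33.6 at 25 °C (95% counting interval 15.2 to 92.7) and 0.977 at 37 °C. Thus 25°C_DMSO was the library that stood apart, at 0.411 CPM against 13.8 CPM in 25°C_CPA and 26.7 and 27.3 CPM in the 37 °C pair. S100a8 had 326 counts in 25°C_CPA and 30 in 25°C_DMSO, with 129 in 37°C_CPA and 91 in 37°C_DMSO, and its folds were 10.6 (7.28 to 15.9) at 25 °C and 1.54 at 37 °C. For S100a8 the highest of the 4 libraries was 25°C_CPA and the lowest 25°C_DMSO. Both genes lie close together on chromosome 3 of mm9, S100a8 from 90472993 to 90473956 on the plus strand and S100a9 from 90496554 to 90499643 on the minus strand.

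The start regions of S100a8 and S100a9 are shown because CAGE reads begin there and both genes moved together; each run covers the 80 bases before and the 20 bases from the RefSeq start (GRCm38.p6), and capitals mark TATAAA, the core letters of a TATA box.
S100a8: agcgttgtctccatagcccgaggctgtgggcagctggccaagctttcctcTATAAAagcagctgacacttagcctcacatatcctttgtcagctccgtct
S100a9: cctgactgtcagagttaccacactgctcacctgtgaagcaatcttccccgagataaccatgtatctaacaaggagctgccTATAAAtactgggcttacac
The runs are chr3:90668991-90669090 on the plus strand for S100a8 and chr3:90695702-90695801 on the minus strand for S100a9. TATAAA, searched on both strands, occurred in 5.31% of 32851 RefSeq promoter windows of this length. In the S100a9 window it lies at the annotated start itself rather than ahead of it.

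The other measured genes of the S100 family were not called, where 0.26% of all measured genes were called. Of the other S100 genes measured on chromosome 3, chosen after their values were seen, S100a1, S100a4, S100a6, S100a10, S100a11, S100a13, S100a14 and S100a16 had folds between 0.817 and 0.997. S100a6, the most counted of them, had 59167 counts in 25°C_CPA and 58561 in 25°C_DMSO. Of 25 listed neutrophil and myeloid S100 genes, 11 were in the table and 6 were measured, and S100a8 and S100a9 were the 2 called, against 0.142% called higher of all genes, with a list median log2 fold of 0.06 against 0.00 for all measured genes. The list summed to 4587 CPM in 25°C_CPA and 4672 CPM in 25°C_DMSO, most of it S100a6. Among the genes that define neutrophils, the granule protein gene Ltf had 0 counts in both libraries, the granule protease gene Prtn3 had 76 and 83 (fold 0.892, 0.645 to 1.23), the collagenase gene Mmp8 had 3 and 1, and the integrin gene Itgam had 9 and 6. Stfa2, a stefin of mouse neutrophils chosen after its values were seen, had 16 counts in 25°C_CPA and 2 in 25°C_DMSO, too few to be measured (fold 7.80, 1.83 to 69.9). The same held for the acute phase gene Saa3, at 28 and 9 counts (3.03, 1.39 to 7.30), also chosen after its values were seen. Genes of the keratinised epithelium that can express calprotectin stood at 142 and 82 counts for Krt16 (fold 1.69, 1.28 to 2.24), 1529 and 1329 for Krt6a (1.12), and 353 and 560 for Krt1 (0.614). Their list of epidermal differentiation summed to 335 CPM in 25°C_CPA and 398 CPM in 25°C_DMSO, and Lor, which encodes loricrin, had 0 counts in both. The part of these cell types in the S100 values was not tested.

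Cytokine signalling was represented among the higher genes by Csf2rb2 and Tslp. Csf2rb2, the interleukin-3 receptor subunit found in mouse, had 80 counts in 25°C_CPA and 15 in 25°C_DMSO, and 145 and 312 in the 37 °C pair. Its fold was 5.20 (2.97 to 9.72) at 25 °C and 0.503 at 37 °C. Its neighbour Csf2rb, the shared beta subunit of related receptors and, like the other receptor genes of this paragraph, chosen after its values were seen, had 14 and 13 counts and was not measured. Csf2ra, the alpha subunit of the GM-CSF receptor, had 52 and 80 counts (fold 0.633, 0.438 to 0.909). Tslp, a cytokine of epithelia, had 59 counts in 25°C_CPA and 24 in 25°C_DMSO (fold 2.40, 1.47 to 4.03), beside 289 in 37°C_CPA and 708 in 37°C_DMSO (fold 0.442), so the Tslp call at 37 °C went in the other direction. Crlf2, the receptor chain that binds TSLP, had 58 and 48 counts (fold 1.18, 0.789 to 1.76). Of 20 listed inflammatory cytokine and acute phase genes, 16 were in the table and 6 were measured at 25 °C. Of these, 0 were called in either direction, beside 0.26% of all measured genes, with a median log2 fold of 0.00. Tnfaip3, an inhibitor of NF-kB signalling, was the highest of these at 1.23 (0.961 to 1.58) and Il1rn, the interleukin-1 receptor antagonist, the lowest at 0.776 (0.527 to 1.14).

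The Y chromosome held 3 of the 18 higher genes. Uty, a relative of histone H3 lysine 27 demethylases, had 530 counts in 25°C_CPA and 198 in 25°C_DMSO (fold 2.61, 2.21 to 3.09). Ddx3y, an RNA helicase, had 366 and 137 (2.60, 2.13 to 3.19), and Eif2s3y, a subunit of translation initiation factor eIF2, had 433 and 175 (2.41, 2.02 to 2.89). Kdm5d, a histone H3 lysine 4 demethylase and the only further Y gene measured, had 104 and 51 (1.99, 1.41 to 2.84) and missed the call. The 4 genes summed to 1433 counts in 25°C_CPA and 561 in 25°C_DMSO, a fold of 2.49, whereas at 37 °C they summed to 805 in 37°C_CPA and 1274 in 37°C_DMSO, a fold of 0.684. So the sum was lower in 25°C_DMSO than in the other 3 libraries.

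Their partners on the X chromosome did not move with them. Kdm6a had 299 counts in 25°C_CPA and 349 in 25°C_DMSO (fold 0.835), Ddx3x 277 and 286 (0.944), Eif2s3x 868 and 899 (0.941), and Kdm5c 786 and 833 (0.919). Xist, the long RNA that coats the inactive X chromosome of female cells, had 1711 and 2674 (fold 0.623, 0.586 to 0.663), below the 2-fold line but with an interval far from 1. At 37 °C Xist was ordered the opposite way, at 2562 in 37°C_CPA and 1529 in 37°C_DMSO. The median log2 fold of the 4 measured Y genes was 1.32, against -0.01 for 411 X genes and medians between -0.01 and 0.01 for the 19 autosomes, which held 11356 genes. Each library pooled embryos whose sex the labels do not give, so a drug difference and a different share of male embryos cannot be told apart for these genes. Without the Y chromosome 15 genes were higher, a count taken after seeing the data.

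**Figure D2:**
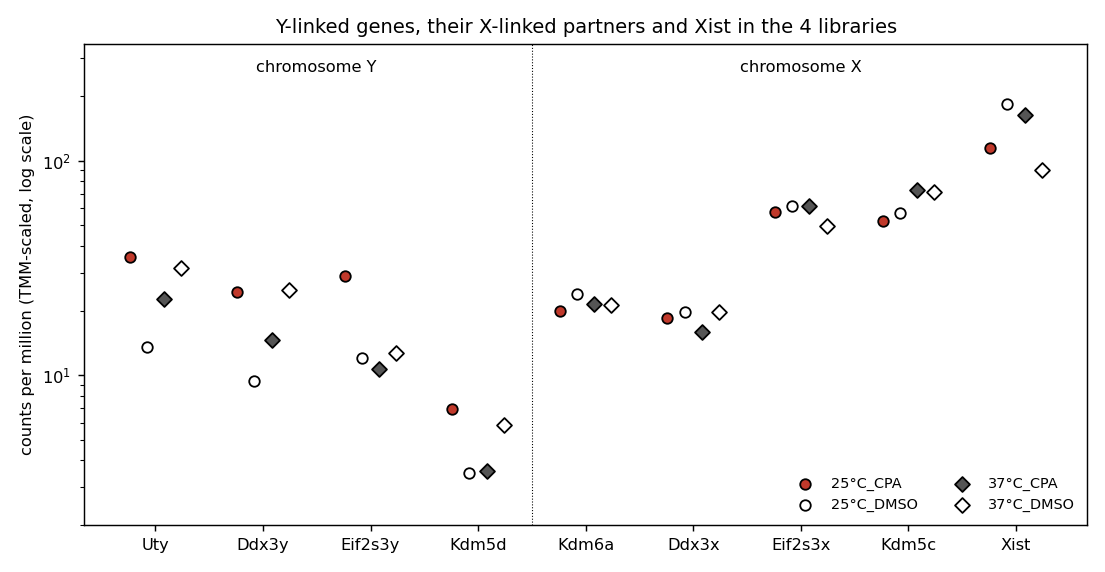
Levels in TMM-scaled CPM (log scale) of 4 Y-linked genes, their X-linked partners and Xist in the 4 libraries, 1 point per library. The Y-linked genes are higher in 25°C_CPA than in 25°C_DMSO (summed counts 1433 and 561) and Xist is lower (1711 and 2674), while at 37 °C both orders are turned round.

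Clk2 was the most counted of the 18 higher genes. It encodes a kinase that phosphorylates SR proteins, the splicing factors rich in serine and arginine, and lies on chromosome 3 of mm9 from 88968717 to 88980843 on the plus strand. It had 1340 counts in 25°C_CPA and 598 in 25°C_DMSO (fold 2.18, 1.98 to 2.41), beside 651 in 37°C_CPA and 746 in 37°C_DMSO (fold 0.945). Here 25°C_CPA stood apart, at 89.4 CPM against 40.9 CPM in 25°C_DMSO and 41.6 and 44.1 CPM in the 37 °C pair. The related kinases, chosen after their values were seen, had folds of 1.03 for Clk1 (958 and 909 counts), 0.913 for Clk3 and 0.935 for Clk4, and Scamp3, the next gene downstream, had 352 and 351 counts (0.977).

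For the higher genes outside the S100 pair with over 300 counts in 25°C_CPA, the start regions are shown as above, with capitals marking TGACG on either strand (CGTCA is its reverse complement), the letters of the core of a cyclic AMP response element.
Clk2: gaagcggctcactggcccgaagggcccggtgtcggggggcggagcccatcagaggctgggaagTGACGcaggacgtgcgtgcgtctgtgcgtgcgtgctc
Uty: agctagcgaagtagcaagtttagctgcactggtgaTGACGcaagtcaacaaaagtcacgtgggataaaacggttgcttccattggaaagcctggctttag
Ddx3y: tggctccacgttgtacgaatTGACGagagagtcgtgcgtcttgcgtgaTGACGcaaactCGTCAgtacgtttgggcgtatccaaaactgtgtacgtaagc
Eif2s3y: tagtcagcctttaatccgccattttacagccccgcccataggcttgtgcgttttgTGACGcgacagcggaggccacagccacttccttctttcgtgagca
These are chr3:89164715-89164814 (plus), chrY:1245740-1245839 (minus), chrY:1286594-1286693 (minus) and chrY:1010515-1010614 (plus) of GRCm38.p6. TGACG occurred once in the Clk2, Uty and Eif2s3y windows and 3 times in that of Ddx3y, and it occurred in 10.9% of the 32851 windows. The motif was chosen after the sequences were seen, and a match of letters is not evidence that a factor binds. None of these 4 windows held TATAAA.

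Among muscle genes, Tnnc2, the calcium sensor of fast skeletal muscle, had 55 counts in 25°C_CPA and 21 in 25°C_DMSO (fold 2.55, 1.52 to 4.44), and Acta1, skeletal alpha-actin, had 52 and 22 (2.30, 1.37 to 3.98). At 37 °C both were below 1, at 0.501 for Tnnc2 and 0.619 for Acta1. Of 22 listed skeletal muscle genes, 18 were in the table and 12 were measured, 2 were called higher and 0 lower against 0.142% and 0.118% of all genes, and all 12 folds lay above 1 with a median log2 fold of 0.40. The lowest of the 12 were Myl4, an embryonic myosin light chain, at 449 and 394 counts (1.11, 0.968 to 1.27), and Tnnt2, a troponin T, at 56 and 49 (1.11, 0.745 to 1.67). In 5 of the 12 the counting interval lay above 1. Tnnc2, Acta1 and Tnnt2 reached the minimum count of a measured gene in 25°C_CPA only, which favours folds above 1 for them. The list was also chosen with earlier results of these data known. The 2 calls and the direction of the 12 folds are therefore a description. The list summed to 134 CPM in 25°C_CPA and 102 CPM in 25°C_DMSO, between 65.9 CPM in 37°C_CPA and 143 CPM in 37°C_DMSO. In pooled tissue, fewer cells of a type and less RNA per cell cannot be told apart.

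The other higher genes had few counts. Zfp982, a zinc finger protein gene, had 51 counts in 25°C_CPA and 0 in 25°C_DMSO, which is at least 16.6-fold higher against a floor of 3 counts in 25°C_DMSO, and its counting interval of 5.36 to 83.0 reaches below that bound. Snap91, a clathrin assembly protein of nerve endings, had 50 and 17 counts (2.87, 1.62 to 5.30), and Cradd, a death domain adaptor of caspase 2, had 56 and 23 (2.37, 1.44 to 4.04). Pip4k2a, a phosphoinositide kinase, had 82 and 36 (2.22, 1.48 to 3.38). The intervals of Snap91, Cradd and Pip4k2a all reached below 2. Med12l, a relative of a Mediator subunit, had 54 and 24 counts (2.19), Tmem229b 59 and 27 (2.13), and Zfp459, another zinc finger protein gene, 66 and 32 (2.01). The remaining higher gene was a predicted gene with 200 and 96 counts (2.03).

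Of the 15 lower genes, 7 were named genes and none of them had more than 138 counts in either library. Vcam1, an adhesion molecule of activated endothelium and of mesenchyme, had 29 counts in 25°C_CPA and 64 in 25°C_DMSO (fold 0.442, 0.274 to 0.695), and 93 and 179 in the 37 °C pair (0.563). Arhgap25, a Rac GTPase-activating protein of blood cells, had 18 and 53 (0.331, 0.182 to 0.574). Tmprss11a, a serine protease of surface epithelia, had 67 and 138 (0.473, 0.348 to 0.638) and was also below 1 at 37 °C, at 500 and 824 counts (0.657). All of these had their lowest level of the 4 libraries in 25°C_CPA. Adcy5, an adenylyl cyclase, had 33 and 72 counts (0.447), and Stk39, a kinase that acts on cation-chloride cotransporters, 24 and 53 (0.441). Lingo2, a membrane protein of neurons, had 33 and 70 (0.459), and Cdh12, a cadherin, had 25 and 50 (0.487). A predicted gene, Gm49685, chosen after its values were seen, carried the same counts as Cdh12 in all 4 libraries, so which of them was transcribed cannot be told, and together they may be 1 observation.

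The most extreme lower folds belonged to predicted genes. The only lower gene with at least 200 counts in its higher library was a predicted gene, Gm6612, chosen after its values were seen, with 373 counts in 25°C_CPA and 1392 in 25°C_DMSO (fold 0.261, 0.232 to 0.293), and 1641 and 1172 in the 37 °C pair (1.52). Gm3411, likewise, had 4 and 89 counts and 0 in both libraries at 37 °C, and Gm10221 had 2 and 50. Predicted genes can resemble other loci, and how multiply matching tags were assigned is not given in the sources used here. Across all genes, 915 share all 4 counts with another gene.

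The 33 genes were chosen by their 25 °C values, so their place among all 4 libraries is a description. Of the 18 higher genes, 25°C_CPA lay above both 37 °C libraries in 11 and below both in 5, and 25°C_DMSO lay above both in 2 and below both in 15. Of the 15 lower genes, 25°C_CPA lay below both 37 °C libraries in 9 and above both in 5, and 25°C_DMSO lay above both in 6 and below both in 6. At 37 °C only Tslp was called in the opposite direction among the 18, and only Gm10221 among the 15, while 0 were called in the same direction, where 2.4% of all measured genes were called higher and 1.59% lower. At 37 °C 5 of the 18 and 6 of the 15 were not measured, and nothing is read from the 0.

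Across all genes the 25 °C libraries lay close to one another. A fold of at least 1.1 in either direction was reached by 37.2% of the 12704 measured genes, of 1.25 by 9.50%, of 1.5 by 1.76% (105 higher and 119 lower) and of 3 by 8 genes. For the 37 °C pair the shares were 65.5%, 33.5% and 13.2% at 1.1, 1.25 and 1.5, with 135 genes at 3-fold. The central 90% of folds ran from 0.799 to 1.24 at 25 °C, against 0.633 to 1.61 at 37 °C, and the SD of the log2 fold was 0.22 against 0.46 across genes. The median log2 fold at 25 °C was 0.00, which the TMM scaling sets. Scaling to Gapdh, itself at 117 and 138 counts, would move every log2 fold up by 0.28, and the other scalings tried moved it by at most 0.04.

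**Figure D3:**
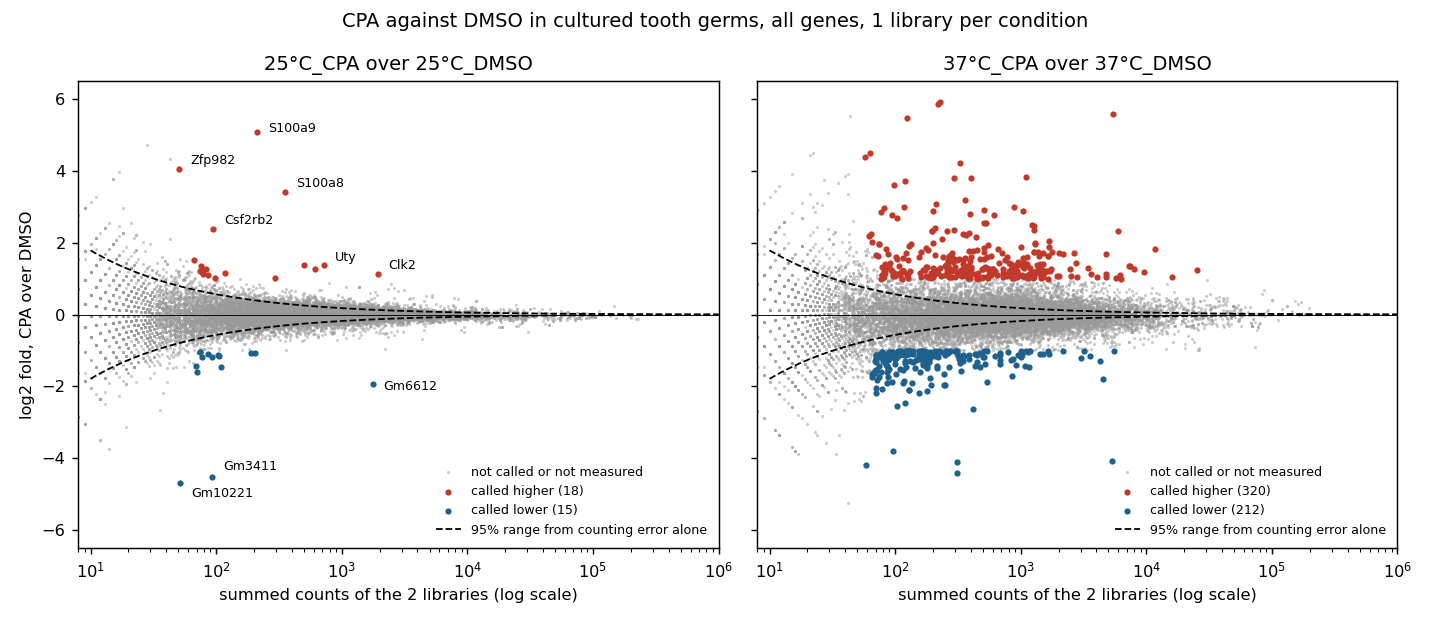
Log2 fold of CPA over DMSO for each gene against the summed counts of its 2 libraries (log scale), at 25 °C (left) and 37 °C (right), for genes with at least 8 summed counts; dashed lines bound the 95% range that counting error alone gives. At 25 °C the cloud narrows as summed counts rise, but less than the dashed lines do. In it 18 genes are called higher and 15 lower, against 320 and 212 at 37 °C.

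How near this spread came to counting error depended on expression level. For genes with 20 to 50 summed counts, the SD of the log2 fold at 25 °C was 0.67 against 0.54 from counting error alone, a ratio of 1.25 over 1117 genes, and at 100 to 200 summed counts it was 0.31 against 0.25, also a ratio of 1.25, over 1545 genes. Between these ranges, at 50 to 100, the ratio was 1.38. The ratio then grew with expression, as the counting error shrank faster than the spread. It was 1.56 at 500 to 1000 summed counts (2699 genes), 2.13 at 2000 to 5000 (1875 genes) and 4.83 at 10000 or more (442 genes, SD 0.10 against 0.02). At 37 °C the ratio was 1.75 at 20 to 50 summed counts and 14.1 at 10000 or more. The spread that counting does not account for fell with expression and then levelled off. Expressed as a fold, it was 26.2% at 50 to 100 summed counts, 14.2% at 200 to 500, 8.28% at 1000 to 2000 and 7.13% at 10000 or more. Over the 5513 genes with at least 1000 summed counts it was 7.78%, and over the 5939 such genes at 37 °C it was 27.3%.

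The counting intervals gave the same picture gene by gene. They left out a fold of 1 for 8.33% of genes with 20 to 50 summed counts, where counting error alone would give 3.36%, for 16.1% at 500 to 1000 (4.58% from counting alone) and for 70.1% at 10000 or more (4.92% from counting alone). So among the most expressed genes most folds exceeded counting error, yet they were small, with a median absolute log2 fold of 0.07. Over all measured genes 19.8% had an interval without 1 at 25 °C, 1199 above and 1320 below, against 52.2% at 37 °C. With no second culture of either condition, what part of this excess was the drug and what part the difference between pools, dissections and library preparations cannot be told apart.

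The 2-fold line, in turn, was reached mostly where counts were few. At 10 to 20 summed counts, 176 of 527 genes lay at 2-fold or beyond, where counting error alone gives 113, and at 20 to 50 it was 130 of 1117 against 72.6. At 50 to 100 summed counts it was 48 of 1229 against 7.80 from counting, and at 100 to 200 it was 5 of 1545 against 0.246. Above that level counting error alone gives essentially none, and 9 genes were found: 4 at 200 to 500, 3 at 500 to 1000 and 2 at 1000 to 2000 summed counts. The last pair were Clk2 and Gm6612. None of the genes with 2000 or more summed counts reached 2-fold at 25 °C.

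**Figure D4:**
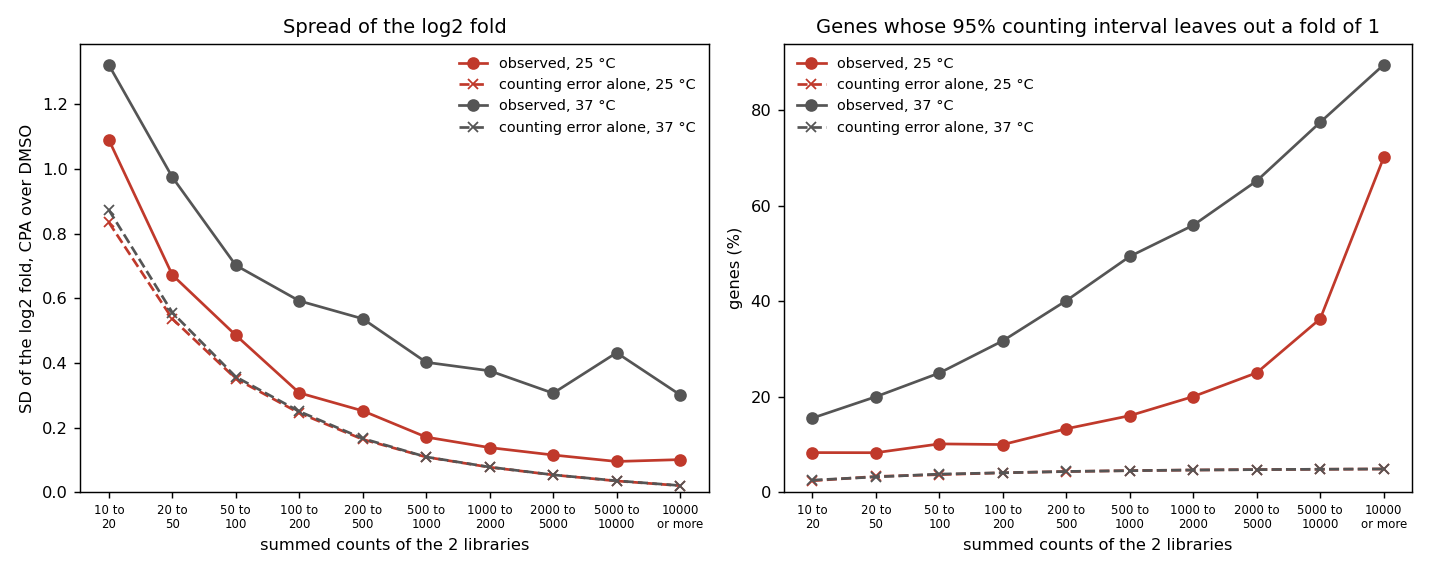
By range of summed counts, the SD of the log2 fold (left) and the share of genes whose 95% counting interval leaves out a fold of 1 (right), observed (solid) and as given by counting error alone (dashed), at 25 °C (red) and 37 °C (grey). The ratio of the observed 25 °C SD to that of counting error is lowest at 20 to 50 and at 100 to 200 summed counts, at 1.25 each. The 25 °C spread lies under the 37 °C spread throughout.

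Among highly expressed genes that missed the 2-fold line, the clearest folds at 25 °C were these. On the higher side, Rpl9, a protein of the large ribosomal subunit, had 1593 counts in 25°C_CPA and 868 in 25°C_DMSO (fold 1.79, 1.65 to 1.94), beside 1856 and 1898 at 37 °C. Picalm, a clathrin assembly protein, had 1636 and 949 (1.68, 1.55 to 1.82), and Hs2st1, a sulfotransferase of heparan sulfate, had 1962 and 1184 (1.61). Like Clk2, Hs2st1 had a fold near 1 at 37 °C, at 0.984. Klhdc10, a kelch domain protein, had a fold of 1.63, Nploc4, a cofactor of the p97 segregase, 1.54, and Dlx1as, an RNA antisense to the homeobox gene Dlx1, 1.56. How tags of opposite strands were assigned to genes is not given in the sources used here, so Dlx1as is uncertain. The 38 listed cytosolic ribosomal protein genes, which do not include Rpl9 and were all measured, had a median log2 fold of -0.05. Of them 0 were called, beside 0.26% of all measured genes, and Rps27 was the highest at 1.08. In this list 1 interval lay above 1 and 21 below, beside 1199 above and 1320 below of all 12704 measured genes. The list was not matched for counts. Its median was -0.02 without scaling between libraries and 0.22 with scaling to Gapdh.

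On the lower side the lowest was 1600014C10Rik, at 771 and 1458 counts (fold 0.515, 0.472 to 0.563), which was called lower at 37 °C, at 951 and 3596 (0.286). Xist came next. Rnf187, a ubiquitin ligase, had 935 counts in 25°C_CPA and 1405 in 25°C_DMSO (0.648, 0.596 to 0.705), and Hbb-y, an embryonic globin, had 1068 and 1542 (0.675, 0.624 to 0.730). Krt15, a keratin of basal epithelium, had 12884 and 17401 (0.721, 0.705 to 0.738), and at 37 °C 6660 and 13667 (0.528). Snord82, a small nucleolar RNA, had a fold of 0.684 at 25 °C and 1.61 at 37 °C. In all, with an interval that left out 1, 51 genes with at least 1000 summed counts were at least 1.25-fold higher and 58 at least 1.25-fold lower at 25 °C (1.98%), against 24.2% of such genes at 37 °C.

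No measured gene of the DNA damage response lists was called at 25 °C. Of 40 listed p53 target genes, 35 were measured and 0 were called in either direction, with a median log2 fold of -0.05. As 0.26% of all measured genes were called at 25 °C, 0 in a list of this size is near that share. At 37 °C 26 of 38 measured were higher, beside 2.4% of all measured genes. Cdkn1a, which encodes the cell cycle inhibitor p21, had 484 counts in 25°C_CPA and 503 in 25°C_DMSO (fold 0.938, 0.826 to 1.06), against 3599 in 37°C_CPA and 1220 in 37°C_DMSO (3.19). The p53 targets with the highest folds at 25 °C were Zfp365, at 139 and 105 counts (1.29, 0.994 to 1.68), and Pmaip1, a BH3-only initiator of apoptosis, at 88 and 68 (1.26, 0.909 to 1.76), both with intervals that hold 1. The lowest were Mgmt, which removes alkyl groups from guanine, at 206 and 268 (0.749, 0.622 to 0.902), and Bbc3, another BH3-only gene, at 125 and 158 (0.771, 0.605 to 0.981). In this list 2 of the 35 intervals lay above 1 and 6 below, beside 1199 above and 1320 below of all 12704 measured genes.

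Repair and proliferation lists had no calls either, where 0.26% of all genes were called. Of 29 measured genes of homologous recombination and the Fanconi anaemia pathway, by which crosslinks are repaired, 0 were called (median log2 fold -0.05), with Fancb lowest at 0.766 (0.528 to 1.11). In that list 1 interval lay above 1 and 1 below. Of 35 genes of excision repair, mismatch repair or translesion synthesis, of 32 apoptosis genes and of 27 genes of G1 to S control, 0 were called (medians -0.01, -0.02 and -0.04). Intervals lay above 1 for 1, 2 and 2 genes and below 1 for 5, 5 and 5 genes of these lists. Their lowest members were Mutyh, a DNA glycosylase, at 0.703, Bcl2a1b, an anti-apoptotic relative of BCL2, at 45 and 74 counts (0.593, 0.400 to 0.870), and Myc at 489 and 645 (0.739, 0.655 to 0.832). The 37 DNA replication genes and 35 measured genes of G2 and mitosis also had 0 calls (medians -0.04 and -0.02; intervals above 1 for 0 and 1 genes and below 1 for 4 and 2), between Mcm10, a replication factor, at 1.31 (0.980 to 1.76) and Kif2c, a mitotic kinesin, at 79 and 120 counts (0.641, 0.477 to 0.859). At 37 °C the medians of the recombination, replication and mitosis lists were 1.00, 0.80 and 0.79.

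No measured gene that handles the drug was called. As 0.26% of all measured genes were called, 0 is near that share for each list of this paragraph. Of 13 listed genes of CPA activation, 2 were measured, the P450 reductase gene Por, at 488 counts in 25°C_CPA and 510 in 25°C_DMSO (0.932), and Ptgs1, a prostaglandin synthase, at 55 and 34 (1.58, 1.01 to 2.49). Of 7 measured aldehyde dehydrogenases 0 were called, from Aldh1a2 at 0.816 to Aldh1a3 at 1.08, and of 22 genes of the NRF2 response and glutathione metabolism 0 were called, from Gclm at 0.854 to Hmox1, heme oxygenase, at 826 and 689 counts (1.17, 1.05 to 1.29). In the NRF2 list 6 intervals lay above 1 and 1 below. Among 5 measured efflux pumps the highest was Abcc4, at 81 and 59 (1.34, 0.945 to 1.90). Heat shock, unfolded protein, hypoxia and glycolysis, interferon, immediate early, circadian and cold-inducible genes had 0 calls in any list, with medians between -0.03 and 0.12. Rbm3, the cold-inducible RNA-binding protein gene, had 15159 counts in 25°C_CPA and 15571 in 25°C_DMSO (0.949).

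**Figure D5:**
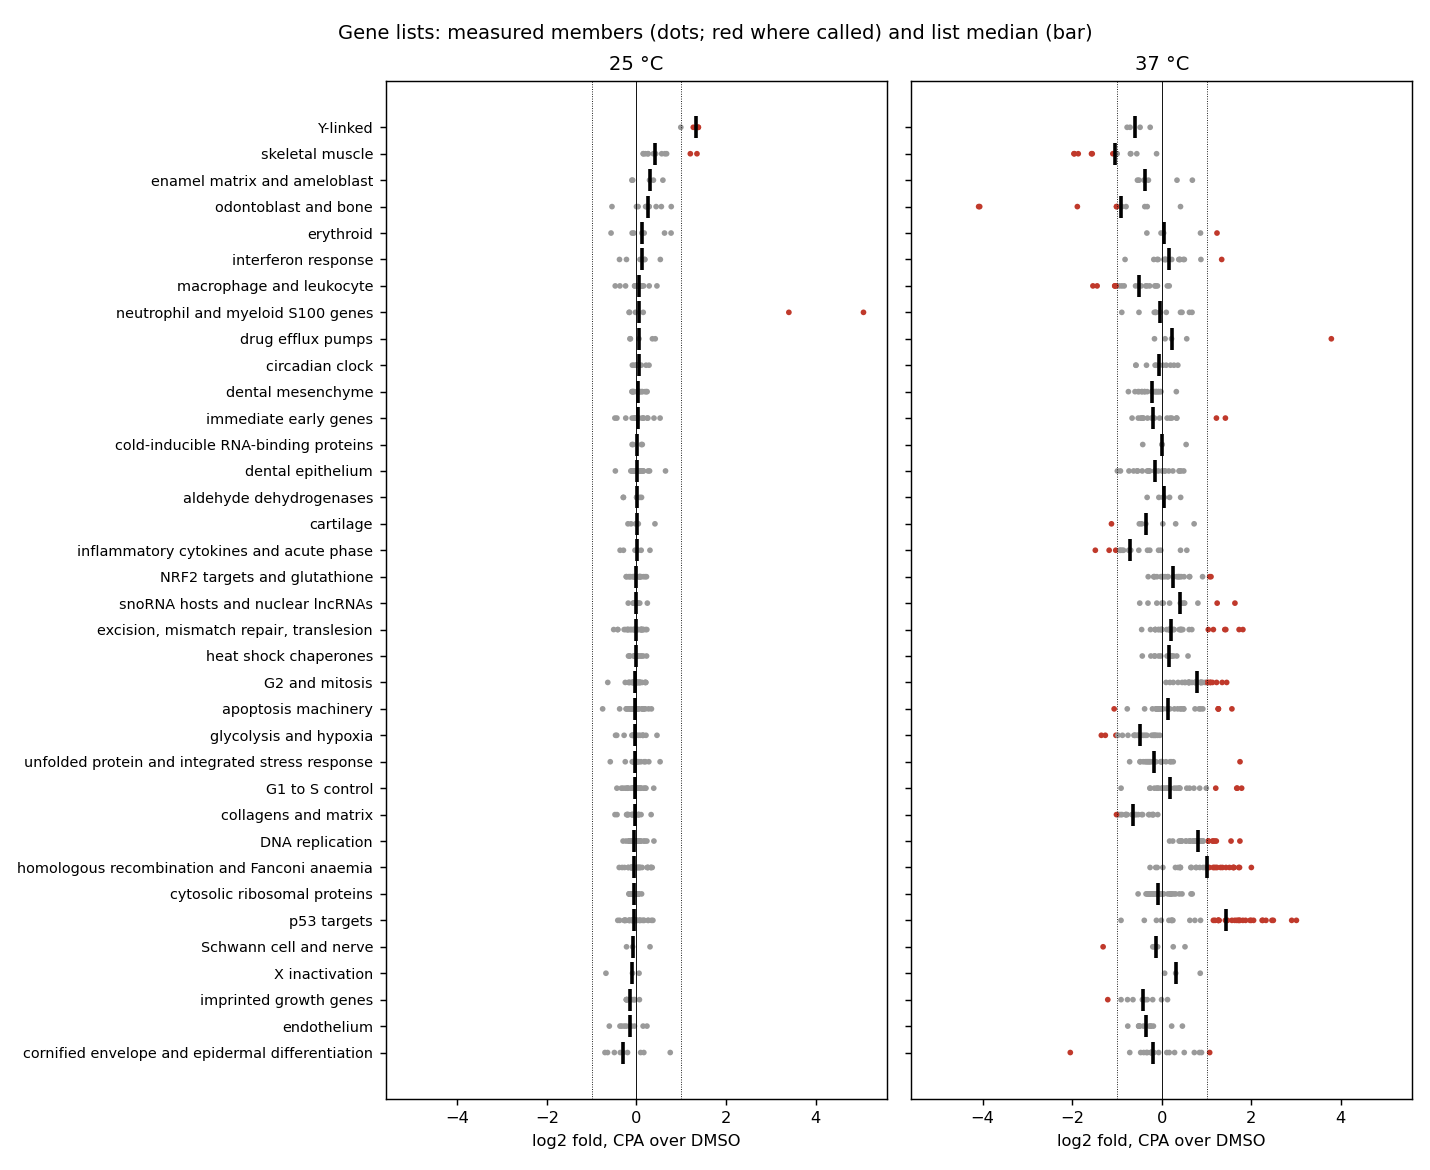
Log2 fold of CPA over DMSO for the measured members of 36 gene lists (dots, red where called) with the list median (bar), at 25 °C (left) and 37 °C (right), for lists with at least 3 measured members; dotted lines mark 2-fold. At 25 °C the medians lie between -0.29 and 1.32, with calls in the Y-linked, muscle and S100 lists only, and at 37 °C between -1.05 and 1.45.

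Over all 37 lists, 563 of the 671 listed genes in the table were measured at 25 °C, 7 of them were called higher and 0 lower, and 34 lists had no call, against 13 lists without a call at 37 °C. The 7 genes were S100a8, S100a9, Tnnc2, Acta1, Uty, Ddx3y and Eif2s3y. These shares stand beside 0.142% and 0.118% for all genes, and nothing particular to a list was tested. The lists were chosen with earlier results of these data known, so the calls within them are a description.

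Genes of the tooth germ itself were not called at 25 °C, where 0.26% of all measured genes were called. Of 23 measured dental epithelium genes 13 were above 1, with a list median log2 fold of 0.01, and the highest was Shh, the hedgehog ligand of the enamel knot, at 206 counts in 25°C_CPA and 128 in 25°C_DMSO (1.57, 1.25 to 1.97), beside 916 and 1046 at 37 °C, and the lowest was Krt15. Of 5 measured enamel and ameloblast genes the highest was Msx2, a homeobox gene, at 306 and 198 (1.51, 1.26 to 1.81), followed by Dlx3 at 1.30, while Ambn, the enamel matrix gene ameloblastin, had 1255 and 1297 (0.943, 0.872 to 1.02). Nkx2-3, a transcription factor of the dental epithelium, had 611 and 621 (0.959). Of 19 measured dental mesenchyme genes the highest were Dlx2 at 1.18 and Runx2 at 1.16 and the lowest Vim, vimentin, at 3879 and 4053 (0.933), with a list median of 0.04. Mki67, a marker of cycling cells, had 429 and 415 counts (1.01), and the kinase genes Cdk2 and Cdk6 and the cyclin gene Ccnd3 had folds of 1.01, 0.961 and 0.990. The tumour suppressor gene Rb1, at 50 and 60 counts (0.812, 0.547 to 1.20), and Hspg2, perlecan, at 563 and 626 (0.876, 0.781 to 0.984), were slightly below 1.

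Apart from muscle and the neutrophil and myeloid S100 genes given above, lists of the surrounding tissues had no call, where 0.26% of all measured genes were called. The 10 measured odontoblast and bone genes had a median log2 fold of 0.25, with Ibsp, bone sialoprotein, at 686 counts in 25°C_CPA and 390 in 25°C_DMSO (1.71, 1.51 to 1.95) and Ifitm5, an osteoblast gene, at 83 and 55 (1.47, 1.03 to 2.11), but Alpl, alkaline phosphatase, at 345 and 491 (0.685, 0.595 to 0.787). At 37 °C the Ibsp counts were 281 and 5098. Of 12 measured endothelial genes 10 were below 1 (median -0.14, and 0.13 with scaling to Gapdh), among them the VEGF receptor genes Flt1, at 60 and 89 (0.657, 0.465 to 0.922), and Kdr, at 175 and 220 (0.775, 0.632 to 0.950), beside Vcam1 above. The 14 measured macrophage and leukocyte genes had a median of 0.07, from C1qb at 0.720 to Coro1a at 1.37, and the 7 erythroid genes a median of 0.12, with Hba-a1, adult alpha-globin, at 100 and 57 (1.71, 1.22 to 2.41) but Hbb-y below 1. Of the 9 measured genes of epidermal differentiation 6 were below 1, with the list median the lowest of all at -0.29, and Krt4, a keratin of oral epithelium, had 540 and 823 counts (0.639, 0.573 to 0.714). The 25 collagen and matrix genes had a median of -0.04, with Lum, lumican, at 0.717 and Thbs1, thrombospondin, at 1.26. In that list 2 intervals lay above 1 and 10 below.

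The genes with the highest lower bounds with CPA at 37 °C were followed at 25 °C. Dcxr, a carbonyl reductase, had 229 counts in 25°C_CPA and 225 in 25°C_DMSO (0.992, 0.821 to 1.20), against 780 and 105 at 37 °C, and Ddias, an anti-apoptotic gene induced by DNA damage, had 213 and 219 (0.948, 0.781 to 1.15), against 912 and 134. Acaa1b, a thiolase of peroxisomes, had 132 and 120 (1.07, 0.831 to 1.38), against 1030 and 79. Abcb1b, a drug efflux pump, Plk5, a polo-like kinase, and Ano3, an anoctamin, had at most 20 counts in either 25 °C library and were not measured. Of these 6 genes, the 3 measured at 25 °C were not called, where 0.26% of all measured genes were called. Of the 4 predicted genes among these 10, Gm17511 had 4628 and 3276 counts (1.38, 1.32 to 1.44), against 5326 and 120 at 37 °C, Gm10073 had 156 and 112 (1.36, 1.06 to 1.75), Gm13067 had 50 and 52 (0.937), and Gm10221 was called lower.

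All genes called at 37 °C were treated the same way. Of the 320 higher there, 238 were measured at 25 °C, and the 25 °C interval held 1 for 202 of them, lay above 1 for 15 and below 1 for 21, so that 15.1% left out 1 against 19.8% of all measured genes. Of the 212 lower at 37 °C, 99 were measured at 25 °C, of which 70 intervals held 1, 9 lay above and 20 below (29.3% without 1). The share without 1 depends on counts, at 8.33% for 20 to 50 summed counts and 70.1% for 10000 or more. These groups were not matched for counts, so nothing is read from the differences between their shares. Over the 12328 genes measured at both temperatures, which share no library between the 2 contrasts, the log2 folds had a Pearson correlation of 0.01 and a Spearman correlation of 0.02 across genes, and over the 5012 genes with at least 1000 summed counts at each temperature these were -0.03 and -0.04. Genes are not independent replicates, and these values are given as a description. The fold pointed the same way at both temperatures for 50.3% of the 12328 genes.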

How the data were processed

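RNA of pooled cultured tooth germs (RNA integrity number above 8.5) was profiled by CAGE in 4 libraries, 1 per condition. Tags were aligned to mm9 by the authors and turned into start sites with SAMtools in the MOIRAI pipeline, and the authors deposited raw whole-number counts for each gene. BWA 0.5.9 and, beside mm9, GRCh38 stand in the submitters' processing notes with no role stated. The gene annotation and how tags were summed by gene were not given in the sources used here.

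TMM factors over the 4 libraries were computed from these counts (0.980 for 25°C_CPA, 0.967 for 25°C_DMSO, 1.02 for 37°C_CPA and 1.03 for 37°C_DMSO) with edgeR 4.0.16 in R 4.3.3. Python 3.11.15, numpy 2.4.6, pandas 2.3.3, SciPy 1.17.1 and matplotlib 3.10.9 were used for the rest. A fold is the ratio of counts over total times factor, with the exact binomial 95% interval of the split of the 2 counts. Tags carried no molecular identifiers, so intervals and floors cover counting error only. Genes were called at a fold of 2 with 50 counts in the higher library, as the methods of the study use a 2-fold difference. A count of 0 was set to 3 counts, and 324 genes with 3 or fewer in both 25 °C libraries got no fold. The calculations were tested on simulated data.

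Counting error alone at each expression level was calculated from the binomial split of each gene's summed count. Positions are from GENCODE vM1 (mm9), matched by identifier for 14333 of 15887 genes, 23 of them annotated on the other strand. RefSeq promoters were found for 22 of the 24 called genes that are not predicted genes. The 37 gene lists (748 genes) and the members were chosen with earlier results of these data known. Named were all called genes except predicted, microRNA and Riken clone genes, the 6 highest and 6 lowest uncalled genes by interval bound with 1000 counts in the higher library, up to 2 members at each end of a list, genes the study measured by other assays, and the 10 highest at 37 °C by lower bound with 200 counts. As alternatives, the libraries were not scaled or were scaled to the total, to DESeq2 1.42.0 size factors, to TMM factors of the 25 °C pair or to Gapdh; the others were minimums of 200, 20 or no counts, 10 counts added, a fold of 1.5, intervals beyond 2-fold, identical genes taken once, a robust spread and, chosen after seeing the data, leaving out chromosome Y. A few single genes are left out of the text.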

Additional observations from a re-analysis of the deposited data

Results flagged for a closer look

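A pair of genes was called in opposite directions with CPA at the 2 temperatures. Tslp had a fold of 2.40 at 25 °C (59 counts in 25°C_CPA and 24 in 25°C_DMSO) and 0.442 at 37 °C (289 counts in 37°C_CPA and 708 in 37°C_DMSO). The predicted gene Gm10221 had a fold of 0.0390 at 25 °C (2 and 50 counts, interval 0.00459 to 0.148) and 13.98 at 37 °C (271 and 21 counts). With 1 library per condition the difference between the temperatures was not tested.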

How the results depend on the processing

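No paired analysis was possible because each condition has 1 library, and no library could be left out for the same reason. The counts of 18 higher and 15 lower genes at 25 °C moved to 52 and 6 with scaling to Gapdh, which kept 18 of the 18 and 6 of the 15 and put 89.7% of calls on the higher side against 54.5%. They were 7 and 1 with a minimum of 200 counts, 72 and 58 with 20, 230 and 228 with none, 10 and 6 with 10 counts added to both libraries, 105 and 119 at a fold of 1.5, and 7 and 3 where the interval had to lie beyond 2-fold. Without scaling or scaled to the total they were 19 and 15, with DESeq2 size factors 17 and 15, with TMM of the pair alone 18 and 15, with identical genes taken once 18 and 14, and without chromosome Y 15 and 15. Above 1000 summed counts the ratio of observed to counting SD was 1.96, and 1.56 by the median absolute deviation. Scaling to Gapdh moved 35 of the 37 list medians and 90 of the 194 named folds beyond their spread or interval, leaving the libraries unscaled moved 2 and 5, scaling to the total moved 1 and 2, and the DESeq2 factors moved none of either. Depth limits single genes. At 50 to 100 summed counts the counting interval typically spanned 1.65-fold on either side, so smaller differences were not detectable there.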

Other observations

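Gene groups gathered by symbol after the values had been seen showed small shifts at 25 °C. None of them had a called gene, where 0.26% of all measured genes were called. Of 47 measured replication-dependent histone genes, 36 had folds below 1, the counting interval lay below 1 for 31 and above 1 for 5, and the median log2 fold was -0.12, against 0.19 at 37 °C. Their counts summed to 586129 in 25°C_CPA and 616792 in 25°C_DMSO (fold 0.926), and some near-identical histone genes share counts. Examples are H2ac7 at 8290 and 10291 counts (0.785, 0.762 to 0.808) and H3c8 at 3961 and 5394 (0.716, 0.687 to 0.746), while H2bc8, which shares its counts with a predicted gene, had 6714 and 5028 (1.30, 1.25 to 1.35). With scaling to Gapdh, which adds 0.28 to each log2 fold, the histone median would be above 0, as would the keratin and imprinted medians given next.

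Of 16 measured keratin genes, 12 had folds below 1 (median log2 fold -0.24), and of 8 measured H2 class I genes, which present peptides to T cells, 3 had intervals above 1 and 0 below (median 0.11), among them H2-D1 at 1066 counts in 25°C_CPA and 748 in 25°C_DMSO (1.39, 1.26 to 1.53). The 55 measured small nucleolar RNA genes had a median of -0.02. Malat1, an abundant nuclear RNA, had 80097 and 65931 counts (1.18, 1.17 to 1.20) and was the highest of 13 measured nuclear and small nucleolar host RNAs, whose lowest was Snhg15 at 0.881. The 11 measured imprinted growth genes had a median of -0.14 with 10 below 1, from Plagl1 at 0.854 to Igf2r at 1.05.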
